A study of Homo sapiens with 16 samples.

Results

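Caveolae are small flask-shaped pits of the plasma membrane, and this account follows the transcripts of 9 genes that build or shape them: the caveolins CAV1, CAV2 and CAV3, the cavins CAVIN1, CAVIN2, CAVIN3 and CAVIN4, and the neck and membrane-bending proteins EHD2 and PACSIN3. They were chosen by name, and all 9 were found under their current symbols among the 43388 genes listed. RNA was sequenced in bulk from cardiomyocytes derived from WTC11, an established human induced pluripotent stem cell line that the labels give as wild type (hPSC-CMs). Day 16 hPSC-CMs in RPMI/B27 served as the baseline, and cells kept until Day 30 spent 2 weeks in RPMI/B27, in RPMI_glcM/B27 (the same medium with glucose set to 5 mM) or in HPLM/B27 (Human Plasma-Like Medium, composed after the solutes of human plasma), each with the B27 supplement and with medium renewed every 3 days. Each of the 4 groups held 4 libraries. These came from separate wells of a single differentiation of a single line, started from cryopreserved cardiac progenitors, so the p-values measure the spread between wells and not between differentiations or donors.

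A caveolin inserts a hairpin into the inner leaflet of the membrane and assembles into oligomers, and cavins then coat the pit from the cytosol. CAV1 is the main caveolin of most cells and CAV2 depends on it for stable assembly, whereas CAV3 is the caveolin of striated muscle. CAVIN1 is needed for caveolae to form at all, CAVIN4 is the muscle cavin, and in cardiomyocytes caveolae gather receptors and ion channels and flatten under stretch.

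CAV2 and CAV1 lie next to each other on the forward strand of chromosome 7 in GRCh38, CAV2 at chr7:116499738-116508541 and CAV1 at chr7:116525009-116561185, with 16467 bases between them. CAVIN4 lies at chr9:100576867-100588389, also on the forward strand. Their sequences are shown because these 3 genes carry the differences between media described below. Each is the 250 bases before a start listed by RefSeq (GRCh38.p14), 5′ to 3′, and capitals mark matches on either strand to 3 motifs. The first is GGGCGG, the core of a GC box, where Sp family factors bind in many promoters without a fixed start. The next is TATAAA, the TATA box, which places the start of transcription in a smaller class of promoters. The last is CAGCTG, an E-box of the kind that muscle regulators of the basic helix-loop-helix family read. Also searched was GGAATG, a form of the site that TEAD factors, the partners of YAP, recognise.
CAV1, chr7:116524759-116525008, forward strand: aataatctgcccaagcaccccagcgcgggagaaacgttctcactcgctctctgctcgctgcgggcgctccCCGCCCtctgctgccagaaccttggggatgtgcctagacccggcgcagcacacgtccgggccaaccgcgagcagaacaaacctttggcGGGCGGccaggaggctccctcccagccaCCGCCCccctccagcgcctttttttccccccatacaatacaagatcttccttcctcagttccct
CAV2, chr7:116499488-116499737, forward strand: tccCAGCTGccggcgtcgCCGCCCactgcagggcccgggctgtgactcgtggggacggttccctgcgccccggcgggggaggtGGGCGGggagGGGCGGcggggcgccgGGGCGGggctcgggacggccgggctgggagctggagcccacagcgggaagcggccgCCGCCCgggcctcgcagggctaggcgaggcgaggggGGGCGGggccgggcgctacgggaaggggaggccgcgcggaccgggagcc
CAVIN4, chr9:100577829-100578078, forward strand: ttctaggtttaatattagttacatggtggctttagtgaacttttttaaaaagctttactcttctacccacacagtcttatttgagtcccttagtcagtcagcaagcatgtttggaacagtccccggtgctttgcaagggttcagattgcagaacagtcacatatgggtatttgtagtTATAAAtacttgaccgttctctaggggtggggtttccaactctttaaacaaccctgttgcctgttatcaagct
The CAV1 window held 3 GC box cores and no match to the other motifs, at 63.6% G and C. The CAV2 window held 6 GC box cores and 1 E-box at 83.2% G and C. The CAVIN4 window, which lies inside the longest RefSeq span of the gene, held 1 TATA box and no GC box core at 40.4% G and C. Among the 27305 promoters of the same length in the table, 42.3% held a GC box core, 11.1% a TATA box, 13.8% an E-box and 11.9% the TEAD form. No motifs overlapped in these windows, and a match describes letters and not a bound factor. RefSeq promoters were matched for 6 of the 9 genes.

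The deposited values are TPM (a share of all transcripts in a library), which scale reads by gene length and by library, so levels can be set side by side between genes. The TPM gave back whole reads for all 31047 genes above 0, with 7744768 to 16183655 reads per library (median 10572856). The mitochondrial ribosomal RNA RNR2 took 41.0% to 48.3% of TPM and the small nuclear RNA RN7SK 8.76% to 13.8%, while RNR1 ranged from 49.5 to 29276 TPM and was highest in Day 30 RPMI/B27 replicates 3 and 4. Every Day 30 library held a larger share of RN7SK (10.7% or more) than every Day 16 library (10.4% or less). Genes averaging 1 TPM or more were tested, which took in 16122 genes and 8 of the 9 caveolar genes. Differences are given as the difference of mean log2(TPM + 1), with the standard error (SE) and the adjusted p of limma (Benjamini-Hochberg over all genes tested), called at an adjusted p under 0.05. On this scale changes of genes near 1 TPM are understated.

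Cardiomyocyte identity was checked on 10 marker genes, whose summed level was 13304 to 17838 TPM over the 16 libraries. Markers of endothelial cells and adipocytes, which are rich in caveolae, were mostly low. Of 10 endothelial markers only the growth factor receptor KDR reached the minimum for testing, and VWF, CDH5 and PECAM1 averaged 0.00960, 0.247 and 0.333 TPM. Of 6 adipocyte markers none reached it. Smooth muscle markers were not low, apart from MYH11, which was listed at 0 in every library. The 7 of them summed to 812 ± 216 TPM at Day 16 and to 421 ± 99.4 in HPLM/B27, 559 ± 354 in RPMI/B27 and 386 ± 46.0 in RPMI_glcM/B27, above the fibroblast sums, and ACTA2 and MYOCD averaged 197 and 98.8 TPM over all libraries. Fibroblast markers (7 of 12 tested) summed to 312 ± 87.1 TPM at Day 16 (mean ± SD, n = 4). At Day 30 they summed to 152 ± 29.7 TPM in HPLM/B27, 143 ± 19.7 in RPMI_glcM/B27 and 235 ± 74.4 in RPMI/B27, and only the RPMI/B27 sums overlapped those of Day 16. In bulk libraries, fewer cells of a type and less RNA per cell cannot be told apart. Nor does a marker sum show which cells made the RNA, and cardiomyocytes also express MYOCD.

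**Figure D1:**
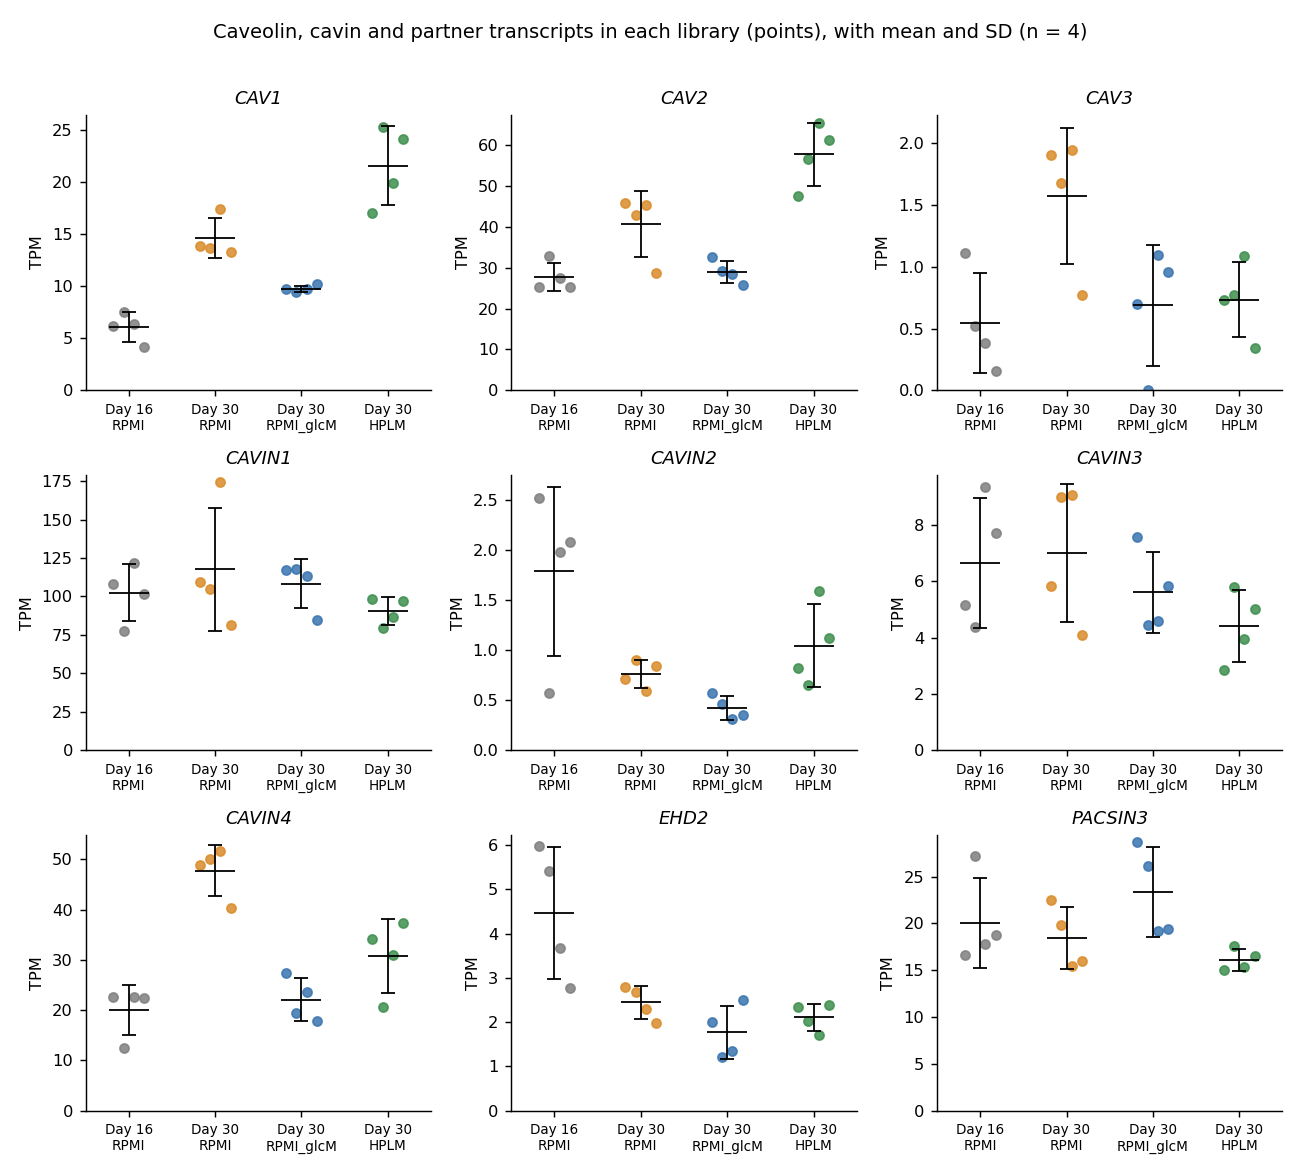
TPM of the 9 genes (1 panel each, linear axes from 0) in each of the 4 libraries of a group (points), with the mean and SD (line and bars). CAV1 and CAV2 were highest in HPLM/B27, at 21.6 and 57.6 TPM on average, whereas CAVIN4 was highest in RPMI/B27 at Day 30, at 47.7 TPM.

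CAVIN1, the coat protein without which caveolae do not form, had the highest level of the 9 genes in all 4 groups. It averaged 102 ± 18.4 TPM at Day 16 and, at Day 30, 90.4 ± 8.95 in HPLM/B27, 108 ± 15.8 in RPMI_glcM/B27 and 118 ± 39.7 in RPMI/B27, above 96.5% of the genes tested by its mean. CAV2, CAVIN4 and PACSIN3 averaged 16.1 to 57.6 TPM, and their libraries overlapped between neighbours in the order at Day 16 and in RPMI_glcM/B27. CAV1 averaged 6.08 ± 1.41 TPM at Day 16, where its libraries overlapped those of CAVIN3 and EHD2, and stood above both without overlap in all 3 Day 30 groups. In HPLM/B27 CAV1 ranked between CAVIN4 and PACSIN3 and overlapped both. EHD2, CAVIN2 and CAV3 were lowest, and CAVIN2 and CAV3 overlapped in every group. The muscle caveolin was therefore the rarest or next to rarest of the 9 transcripts, and the muscle cavin was among the more abundant.

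CAV3 rested on 0 to 20 reads per library and was not tested, since its mean of 0.885 TPM fell below the minimum. The 4 Day 16 libraries held 6, 3, 2 and 1 reads of CAV3. Day 30 libraries held 10, 13, 20 and 6 reads in RPMI/B27, 4, 0, 5 and 5 in RPMI_glcM/B27, and 5, 5, 8 and 2 in HPLM/B27. In TPM the group means were 0.545 ± 0.408, 1.57 ± 0.550, 0.689 ± 0.488 and 0.733 ± 0.304, and the libraries of every pair of groups overlapped. Fitted with all genes above 0, no comparison of CAV3 passed the threshold, and the lowest adjusted p was 0.0827 (limma, Day 30 RPMI/B27 against Day 16, a difference of 0.74). CAV3 made up 1.59% of the summed caveolin TPM at Day 16, and 0.929%, 1.75% and 2.69% of it in HPLM/B27, RPMI_glcM/B27 and RPMI/B27.

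The comparison of HPLM/B27 with RPMI_glcM/B27 asks what the medium does apart from its glucose. In it CAV1 and CAV2 were higher in HPLM/B27, each by about the same factor, and no other caveolar gene passed the test. These were 2 of the 8 genes tested, where 11 of all 16122 genes passed (0.0682%), 8 of them higher (0.0496%) and 3 lower (0.0186%). With median-of-ratios factors in place of TPM scaling the split was 160 higher and 97 lower, and CAV1 and CAV2 stayed past the threshold. The CAV1 level was 9.71, 9.46, 9.71 and 10.2 TPM in the RPMI_glcM/B27 libraries and 17.1, 25.3, 19.9 and 24.2 in the HPLM/B27 libraries. All 4 HPLM/B27 libraries stood above all 4 RPMI_glcM/B27 libraries, which lay within 1 TPM of each other. The ratio of the CAV1 means was 2.21, and the log2 difference 1.05 (SE 0.16, adjusted p = 0.0220, limma). CAV2, the partner of CAV1 in the oligomer, was at 32.5, 29.1, 28.5 and 25.8 TPM in RPMI_glcM/B27 and at 47.5, 56.5, 65.2 and 61.3 in HPLM/B27. Again the groups did not overlap. The ratio of the CAV2 means was 1.99, and the log2 difference 0.96 (SE 0.15, adjusted p = 0.0220, limma). The paper on these data had already named CAV2 as higher in HPLM/B27 than in RPMI_glcM/B27. It reported this from RNA sequencing and from quantitative PCR over several lines and differentiations.

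Both differences passed under all 10 alternatives that used every library, with adjusted p from 0.000164 to 0.0376 for CAV1 and from 1.67e-05 to 0.0422 for CAV2 (limma). With 1 library left out, both calls held only without HPLM/B27 replicate 1 (adjusted p 0.0167 and 0.0232) and were lost without any one of RPMI_glcM/B27 replicates 1 to 4 or HPLM/B27 replicates 2 to 4, at adjusted p of 0.0532 to 0.105 and log2 differences of 0.98 to 1.09 for CAV1 and 0.90 to 1.02 for CAV2. Fibroblast, smooth muscle, endothelial and adipocyte marker sums overlapped between these groups, as did cardiomyocyte sums (17128 ± 662 TPM in HPLM/B27 against 17106 ± 747). The 6 epicardial markers summed to 15.0 ± 1.53 TPM in RPMI_glcM/B27 and to 7.90 ± 0.440 in HPLM/B27, without overlap. Most of this sum was TBX18, which averaged 12.1 TPM over the 16 libraries, while WT1, the next highest, averaged 0.919. TBX18 was the only 1 of the 6 tested, and its difference of -0.88 did not pass. The part of any of these cell types in the result was not tested. The dominant rows moved with this comparison too, without overlap: RNR2 took 42.0% to 45.5% of TPM in RPMI_glcM/B27 and 46.2% to 48.3% in HPLM/B27, and RN7SK 13.0% to 13.6% and 10.7% to 12.3%. With these and the other mitochondrial and ribosomal RNA rows removed, the differences were 1.12 for CAV1 (adjusted p = 0.00263, limma) and 1.03 for CAV2 (adjusted p = 0.000718).

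Among the other members, CAVIN2, which helps bend the membrane, was higher in HPLM/B27 without overlap, on few reads: 7, 5, 3 and 4 reads in the RPMI_glcM/B27 libraries against 12, 9, 25 and 14. Its log2 difference of 0.50 (SE 0.24) did not pass (adjusted p = 0.776, limma). PACSIN3, an F-BAR protein that bends membranes and is enriched in muscle, was lower in HPLM/B27 without overlap, at 15.0 to 17.6 TPM against 19.2 to 28.7, and its difference of -0.49 (SE 0.17) did not pass either (adjusted p = 0.507). It passed under 1 of the 10 alternatives, limma-voom on reads with RNR1 as a covariate (adjusted p = 0.0308, range over the alternatives 0.0308 to 0.623). Libraries were apart and higher in HPLM/B27 for 2.41% of all genes tested and apart and lower for 4.86%, against 3 and 1 of these 8. CAVIN4 differed by 0.45 (SE 0.21, adjusted p = 0.753) with overlap, and HPLM/B27 replicate 2 sat at 20.5 TPM beside 34.2, 31.0 and 37.4. CAVIN1, CAVIN3 and EHD2 differed by -0.25, -0.30 and 0.19, with overlap and adjusted p of 0.914 to 0.956.

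**Figure D2:**
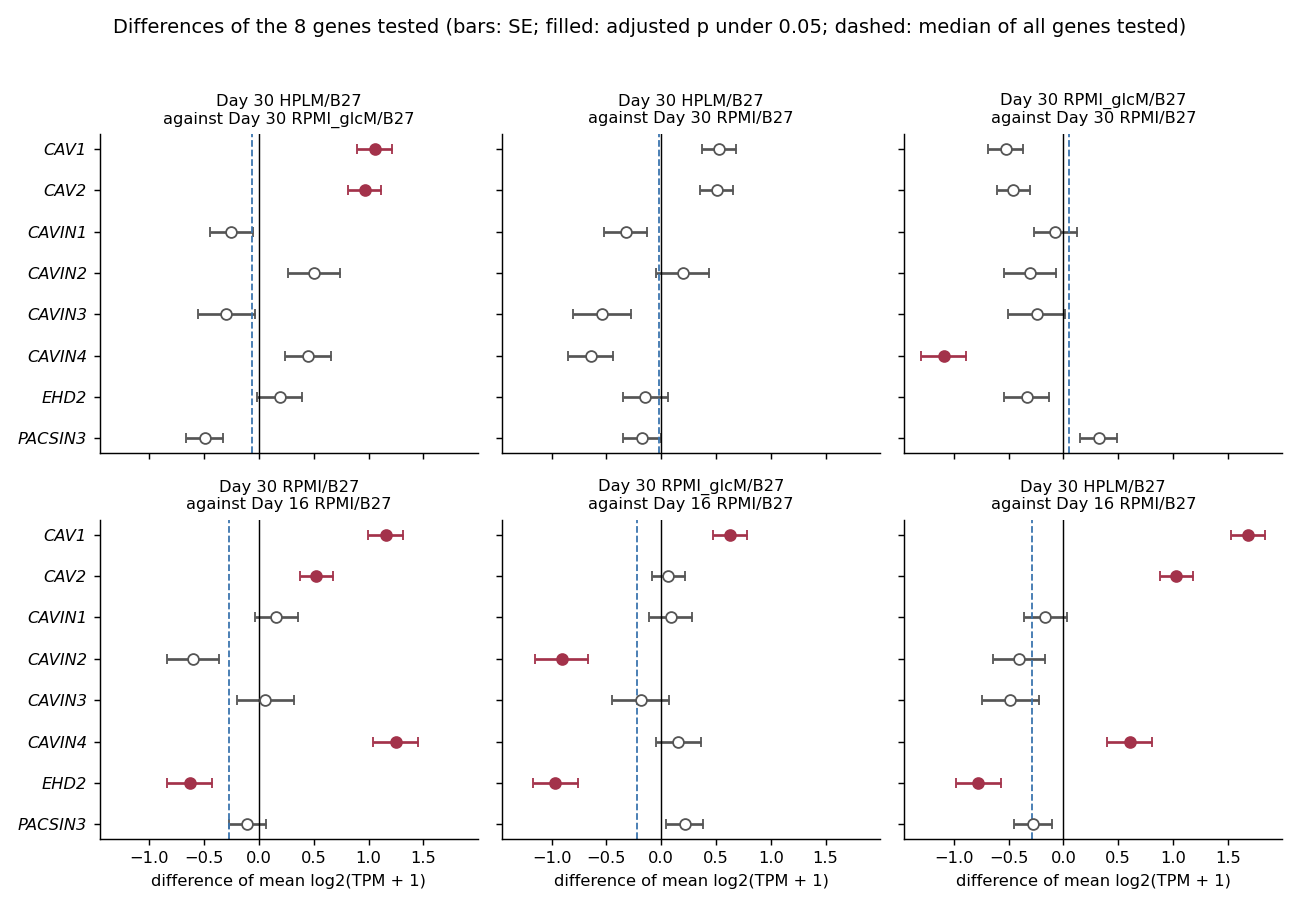
Difference of mean log2(TPM + 1) for the 8 genes tested in 6 comparisons (points, bars ± 1 SE). Filled points passed an adjusted p of 0.05 in limma, and the dashed line is the median of all 16122 genes tested. CAV1 passed in 4 panels and lay to the left of 0 only in RPMI_glcM/B27 against RPMI/B27, at -0.53.

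RPMI_glcM/B27 against RPMI/B27 at Day 30 is the comparison in which the stated change was glucose. CAVIN4, the muscle cavin, was lower at the reduced glucose and was the only one of the 8 genes past the threshold, where 2.20% of all genes passed (1.36% higher and 0.837% lower). Its level was 48.9, 50.1, 51.6 and 40.3 TPM in RPMI/B27 and 27.3, 19.4, 23.6 and 17.9 in RPMI_glcM/B27. The lowest RPMI/B27 library stood above the highest RPMI_glcM/B27 library. The ratio of the means was 0.462, and the log2 difference -1.09 (SE 0.21, adjusted p = 0.0106, limma). The call held under all 10 alternatives (adjusted p 0.000211 to 0.0342) and without each of the 8 libraries in turn (0.0127 to 0.0423). Fibroblast markers moved with this comparison. Their median log2 difference was -0.77 against 0.05 for all genes, and the collagen gene COL1A2 passed (-1.24, adjusted p = 0.00393, limma). Of these markers 5 of 7 had an unadjusted p under 0.05, a share not given here for all genes. Their sums overlapped at 152 to 302 TPM in RPMI/B27 and 119 to 164 in RPMI_glcM/B27. Their part in the result was not tested. CAVIN4 overlaps TMEFF1 and MSANTD3-TMEFF1 on the same strand in the annotation, and how the counting treated shared bases is not given in the sources used here.

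CAV1 was lower in RPMI_glcM/B27 than in RPMI/B27 without overlap, as 9.46 to 10.2 TPM against 13.3 to 17.5, but did not pass (difference -0.53, SE 0.16, adjusted p = 0.100001, limma). CAV2 averaged 29.0 ± 2.74 against 40.6 ± 8.03 TPM and overlapped through RPMI/B27 replicate 4 at 28.8 TPM, the library with the highest RNR1 (difference -0.46, SE 0.15, adjusted p = 0.141). Both passed under 5 of 10 alternatives, over which the adjusted p ranged from 0.0209 to 0.209 for CAV1 and from 0.00442 to 0.399 for CAV2, and CAV2 passed without RPMI/B27 replicate 4 (difference -0.61, adjusted p = 0.0173). CAVIN2 was also lower without overlap, at 0.427 ± 0.119 against 0.763 ± 0.139 TPM, and did not pass (adjusted p = 0.609). Libraries were apart for 3 of the 8 genes, all lower, where 2.60% of all genes were apart and lower and 4.40% apart and higher. The remaining 4, CAVIN1, CAVIN3, EHD2 and PACSIN3, overlapped, at differences of -0.33 to 0.32.

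HPLM/B27 against RPMI/B27 sets the media side by side with both glucose and the other solutes changed. No caveolar gene passed in limma, where 2.41% of all genes did (1.51% higher and 0.893% lower). Unadjusted p-values were under 0.05 for CAV1, CAV2 and CAVIN4, and limma-voom on reads called the same genes. The shares of all genes at that level and under limma-voom are not given here, so this is not set against a background. CAV2 was higher in HPLM/B27 without overlap, with 47.5 to 65.2 TPM against 28.8 to 45.8 (difference 0.51, SE 0.15, adjusted p = 0.0959, limma). CAV1 averaged 21.6 ± 3.81 against 14.6 ± 1.92 TPM and overlapped through 1 library of each group, HPLM/B27 replicate 1 at 17.1 and RPMI/B27 replicate 3 at 17.5 (difference 0.53, SE 0.16, adjusted p = 0.0981). CAVIN4 went the other way, lower in HPLM/B27 without overlap, with 20.5 to 37.4 TPM against 40.3 to 51.6 (difference -0.64, SE 0.21, adjusted p = 0.124). These were 1 of 8 genes apart and higher and 1 apart and lower, where 4.13% of all genes were apart and higher and 3.17% apart and lower. The calls depended on the setting: CAV2 passed under 4 of 10 alternatives (adjusted p 0.00711 to 0.328), CAV1 under 3 (0.0150 to 0.269) and CAVIN4 under 2 (0.0134 to 0.224). The 3 comparisons of Day 30 media share their groups and are not independent of each other.

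CAV1 and CAV2 thus had a common order over the media at Day 30, HPLM/B27 above RPMI/B27 above RPMI_glcM/B27, whereas CAVIN4 was ordered RPMI/B27, HPLM/B27, RPMI_glcM/B27, by their means. No neighbours in these orders passed the test, whereas the first and the last did for all 3 genes. The ratio of CAV2 to CAV1 was 2.71 ± 0.442 in HPLM/B27, 2.79 ± 0.521 in RPMI/B27 and 2.97 ± 0.338 in RPMI_glcM/B27, with overlap between all 3 groups. CAVIN1 to CAVIN4 was 3.04 ± 0.575, 2.43 ± 0.635 and 4.98 ± 0.765 in the same order, and the ratio in every RPMI_glcM/B27 library exceeded that in every other Day 30 library.

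**Figure D3:**
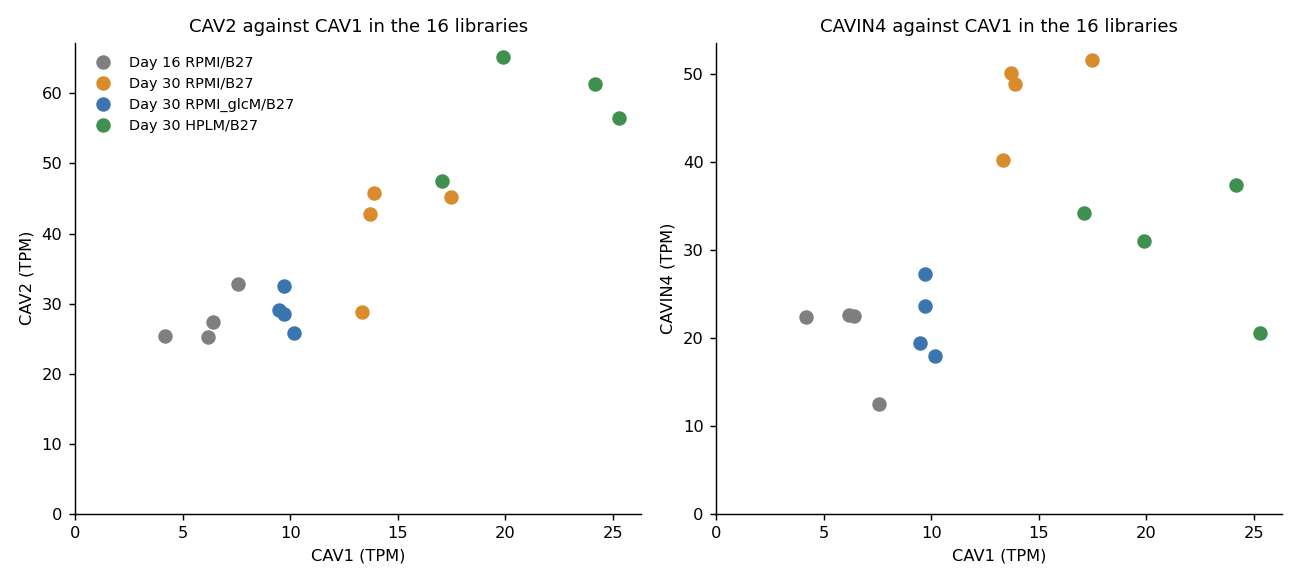
TPM of CAV2 (left) and of CAVIN4 (right) against TPM of CAV1 in the 16 libraries, coloured by group, with linear axes from 0. The HPLM/B27 libraries lie at the upper right on the left plot, and on the right plot the RPMI/B27 libraries at Day 30 lie above them, at 40.3 to 51.6 TPM of CAVIN4.

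Against Day 16, the 3 Day 30 groups had far more lower than higher genes in TPM. In RPMI/B27, 336 were higher with 2867 lower, in RPMI_glcM/B27 538 with 2862, and in HPLM/B27 483 with 3605. The median of all genes was -0.28, -0.22 and -0.29. The split depended on the scaling. With median-of-ratios factors, which put the medians at 0.01, it was 1413 higher with 1413 lower, 2254 with 2199, and 2154 with 1919. Without the mitochondrial, ribosomal RNA and RN7SK rows it was 745 with 2111, 1174 with 2672, and 1169 with 2494. For the members that passed, differences relative to the median are given beside the differences below, and those of the listed genes are on the TPM scale alone.

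CAV1 rose from Day 16 in all 3 media without overlap. Its Day 16 libraries held 6.19, 7.56, 6.40 and 4.16 TPM. Day 30 libraries in RPMI/B27 held 13.9, 13.7, 17.5 and 13.3 TPM, and those of the other media are given above. The difference was 1.16 in RPMI/B27 (SE 0.16, adjusted p = 0.000203, limma), 0.63 in RPMI_glcM/B27 (adjusted p = 0.00964) and 1.68 in HPLM/B27 (adjusted p = 3.33e-06), or 1.43, 0.85 and 1.97 relative to the median of all genes. Every alternative and every fit without 1 library kept these 3 calls. The ratio of means was 2.40, 1.61 and 3.56.

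CAV2 rose in HPLM/B27 and in RPMI/B27, and its libraries in RPMI_glcM/B27 overlapped those at Day 16. The Day 16 levels were 25.2, 32.8, 27.4 and 25.4 TPM, all below the lowest HPLM/B27 library. In HPLM/B27 the difference was 1.03 (SE 0.15, adjusted p = 0.000190, limma), or 1.31 relative to the median, and held under every setting. In RPMI/B27 it was 0.52 (adjusted p = 0.0247), or 0.80 relative to the median, with overlap, and the call was lost without Day 16 replicates 1, 3 or 4 or RPMI/B27 replicate 3 (adjusted p 0.0512 to 0.0734) and with only the compared groups in the fit (0.120), the highest of a range from 0.000197 over 10 alternatives. In RPMI_glcM/B27 it was 0.07 (SE 0.15, adjusted p = 0.793), or 0.28 relative to the median, and up to 0.33 under the alternatives (adjusted p 0.0572 to 0.839). The ratio of CAV2 to CAV1 was 4.70 ± 0.941 at Day 16, where every library stood above every Day 30 library.

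CAVIN4 rose in RPMI/B27 and, less firmly, in HPLM/B27. At Day 16 it was at 22.6, 12.5, 22.5 and 22.3 TPM, with replicate 2 far below the rest. The RPMI/B27 libraries at Day 30 stood apart above them, for a difference of 1.25 (SE 0.21, adjusted p = 0.000909, limma), or 1.52 relative to the median, a call that held under every setting. The HPLM/B27 libraries overlapped, for a difference of 0.60 (adjusted p = 0.0415), or 0.89 relative to the median, which was lost without Day 16 replicates 1, 2 or 3 or HPLM/B27 replicates 1, 3 or 4 (adjusted p 0.0510 to 0.140) and under 3 of 10 alternatives (up to 0.0793, from 0.00467). In RPMI_glcM/B27 the difference was 0.16 (SE 0.21, adjusted p = 0.634), or 0.37 relative to the median, reached 0.41 under the alternatives (adjusted p 0.244 to 0.845) and changed sign to -0.045 without Day 16 replicate 2. CAVIN4 made up 15.1 ± 1.68% of the summed cavin TPM at Day 16, 28.4 ± 4.44% in RPMI/B27, 24.0 ± 3.26% in HPLM/B27 and 16.2 ± 1.79% in RPMI_glcM/B27.

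EHD2, an ATPase that rings the neck of the pit and holds it at the surface, fell in all 3 media, on 15 to 79 reads per library. It was at 5.99, 5.41, 3.68 and 2.78 TPM at Day 16. The Day 30 libraries spanned 1.22 to 2.49 TPM in RPMI_glcM/B27, 1.72 to 2.38 in HPLM/B27 and 1.99 to 2.80 in RPMI/B27, and those of RPMI/B27 overlapped Day 16 by 1 library of each group. The difference was -0.96 in RPMI_glcM/B27 (SE 0.20, adjusted p = 0.00334, limma), -0.78 in HPLM/B27 (adjusted p = 0.0119) and -0.63 in RPMI/B27 (adjusted p = 0.0405), or -0.75, -0.49 and -0.35 relative to the median. The call in RPMI_glcM/B27 held under every setting that tested EHD2. The call in HPLM/B27 was lost with median-of-ratios factors (adjusted p = 0.0617, range 0.00742 to 0.0617). The call in RPMI/B27 was lost under 7 of 9 alternatives (range 0.0288 to 0.204) and without Day 16 replicates 1, 2 or 3 or RPMI/B27 replicates 3 or 4 (adjusted p 0.0595 to 0.131).

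CAVIN2 fell in RPMI_glcM/B27 (difference -0.91, SE 0.24, adjusted p = 0.0132, limma), or -0.69 relative to the median, with overlap through Day 16 replicate 2, and the call was lost without Day 16 replicate 1 (adjusted p = 0.0525). Its mean over the 16 libraries was 1.01 TPM, and it reached the minimum for testing through Day 16, where it averaged 1.79 TPM. As Day 16 was also the reference, the filter favoured lower Day 30 values, and the call is no independent support for a fall. The Day 16 libraries held 29, 7, 22 and 28 reads of CAVIN2, and without replicate 2 the differences in RPMI/B27 (-0.86, adjusted p = 0.0114) and in HPLM/B27 (-0.66, adjusted p = 0.0312) passed as well, where the full fit gave -0.60 and -0.40 (adjusted p 0.0842 and 0.222). CAVIN1, CAVIN3 and PACSIN3 passed in none of the 3 comparisons with Day 16. PACSIN3 in RPMI_glcM/B27 did so under 2 of 10 alternatives, at 0.47 with median-of-ratios factors (adjusted p = 0.00834, range 0.00834 to 0.464) and 0.44 with limma-voom and RNR1 as a covariate, against 0.21 in the full fit (adjusted p = 0.403). CAVIN3, which binds caveolin-coated membrane with CAVIN1, rested on 14 to 67 reads and averaged 6.65 ± 2.30, 6.99 ± 2.45, 5.61 ± 1.45 and 4.41 ± 1.28 TPM in the 4 groups.

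Set beside the background, 4 of 8 genes passed in RPMI/B27 against Day 16, 3 higher and 1 lower, where 19.9% of all genes passed, 2.08% higher and 17.8% lower. In RPMI_glcM/B27, 1 of 8 rose and 2 fell, where 3.34% rose and 17.8% fell, 21.1% in all. CAVIN2, 1 of these 2, was in the test only through its Day 16 level. In HPLM/B27, 3 of 8 rose and 1 fell, where 3.00% rose and 22.4% fell, 25.4% in all. Groups were apart for 2 genes in RPMI/B27, CAV1 and CAVIN4, for 2 in RPMI_glcM/B27, CAV1 higher and EHD2 lower, and for 3 in HPLM/B27, CAV1 and CAV2 higher and EHD2 lower, where 1.72%, 4.24% and 3.77% of all genes were apart and higher, and 16.2%, 25.9% and 32.1% apart and lower. The 3 comparisons share the Day 16 libraries.

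The listed neighbours of CAV2 and CAV1 on chromosome 7 did not follow their pattern as a group. TES, a focal adhesion protein gene at chr7:116210539-116258783 on the CAV2 side, was lower in RPMI_glcM/B27 than in RPMI/B27, at 8.99 ± 1.66 against 15.5 ± 0.861 TPM (difference -0.74, SE 0.14, adjusted p = 0.00906, limma). It was higher in HPLM/B27 than in RPMI_glcM/B27 without overlap, at 12.9 ± 2.01 TPM, and that difference did not pass (0.48, SE 0.14, adjusted p = 0.296). From Day 16, where TES was at 18.0 ± 0.668 TPM, it fell in RPMI_glcM/B27 and in HPLM/B27 (-0.94 and -0.46, adjusted p 0.000167 and 0.0212), the opposite direction to CAV1. CAPZA2, an actin capping subunit on the CAV1 side, differed by -0.17 to 0.11 in all 6 comparisons and passed in none. ST7 fell in RPMI/B27 from Day 16 (-0.59, adjusted p = 0.0362) with overlap. WNT2, a secreted ligand, fell from 5.59 ± 2.43 TPM at Day 16 to 0.0180 ± 0.0360, 0.135 ± 0.204 and 0.154 ± 0.0761 TPM in HPLM/B27, RPMI_glcM/B27 and RPMI/B27 (differences of -2.62, -2.47 and -2.44, adjusted p 3.70e-06 to 1.33e-05). WNT2 averaged 1.47 TPM over all libraries and reached the minimum for testing through Day 16 alone. The direction of its calls was thus set by the filter. TFEC and the receptor gene MET averaged 0.0396 and 0.738 TPM and were not tested.

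**Figure D4:**
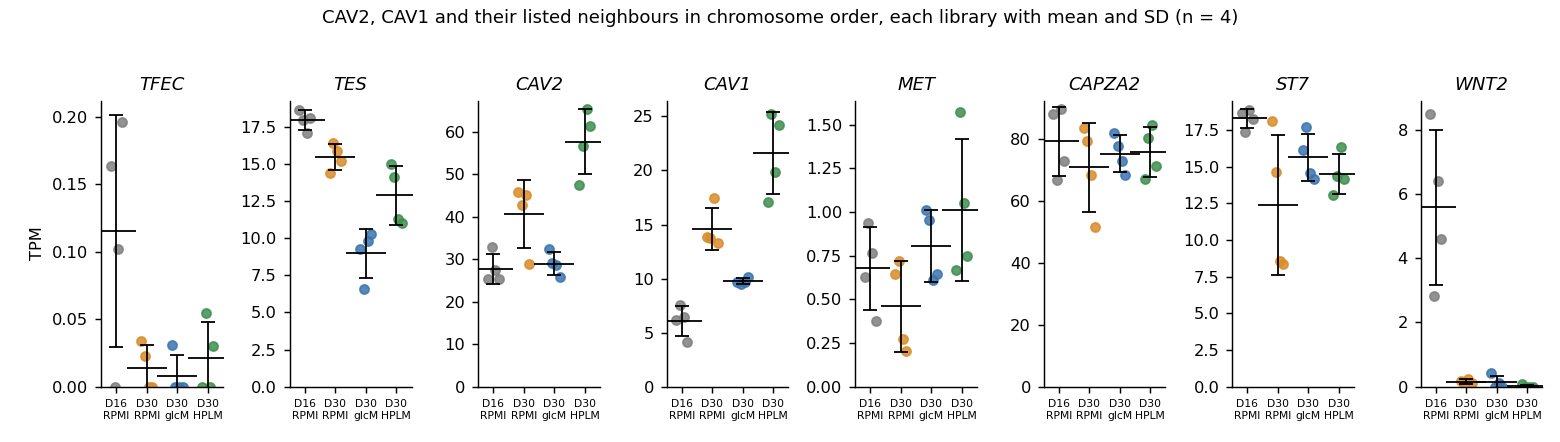
TPM of CAV2, CAV1 and 6 listed neighbours, left to right in their order on chromosome 7, in each library (points) with mean and SD (bars cut at 0), on linear axes that differ between panels. CAV1 and CAV2 were higher in HPLM/B27 than in RPMI_glcM/B27, while CAPZA2 averaged 75.2 and 75.7 TPM in those media.

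The genes whose log2 levels ran most like those of CAV1 over the 16 libraries were DES (Pearson 0.909), NPPA (0.898), CAV2 (0.882), CSRP3 (0.877) and SV2C (0.872), out of 14198 genes with enough reads. DES encodes the intermediate filament of muscle, NPPA the atrial natriuretic peptide, CSRP3 the muscle LIM protein of the Z-disc and SV2C a vesicle glycoprotein. DES averaged 3.96 TPM at Day 16, 17.5 in HPLM/B27, 9.17 in RPMI/B27 and 8.06 in RPMI_glcM/B27, and CSRP3 401, 1254, 786 and 786. CAVIN4 ranked 369th (0.508), and CAVIN1, CAVIN2, CAVIN3, EHD2 and PACSIN3 correlated negatively (-0.446 to -0.129). For CAV3 the highest were KLHL13, SPON1, MBNL1-AS1, TNFRSF11B and ORMDL3 (0.731 to 0.704), on at most 20 reads of CAV3, with CAVIN4 at rank 45 (0.594). The 16 points are 4 groups of wells that share medium, age and scaling, so these values describe a shared group pattern.

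Lists of caveola-related genes gave no call between HPLM/B27 and RPMI_glcM/B27, where 0.0682% of all genes passed in limma. These were 0 of 11 neck and raft relatives and 0 of 15 muscle membrane partners. Likewise 0 of 26 receptors, kinases and transporters tied to caveolae passed, and 0 of 18 genes of the YAP and stretch response. At such a share, counts of 0 in lists this short say little about these genes. In each list 2 genes had an unadjusted p under 0.05, and the medians were -0.05, -0.04, 0.01 and -0.14 against -0.06 for all genes. Between RPMI_glcM/B27 and RPMI/B27, 2 of the 11 relatives fell, where 0.837% of all genes were called lower. They were SYNPO (-0.72, adjusted p = 0.0272, limma) and SYNPO2 (-0.65, adjusted p = 0.0387), actin-binding proteins of the synaptopodin family. SYNPO2 was also lower in HPLM/B27 than in RPMI/B27 (-0.69, adjusted p = 0.0279, limma), where 0.893% of all genes were called lower. None of the other 3 lists had a gene past the threshold in either comparison, and 1 to 5 of their genes had an unadjusted p under 0.05.

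From Day 16 the neck and raft relatives moved down where they moved, 5 of 11 lower and 0 higher in each medium, at medians of -0.29, -0.48 and -0.40 (in the order RPMI/B27, then RPMI_glcM/B27, then HPLM/B27, kept below) beside -0.28, -0.22 and -0.29 for all genes. PACSIN1, EHD1 and the lipid raft protein gene FLOT2 were among them, as in RPMI/B27 at -0.94, -0.86 and -0.56 (adjusted p 0.00169, 0.00268 and 0.0393, limma). Of the muscle membrane partners, 1 of 15 rose and 4 fell in RPMI/B27, 0 and 4 in RPMI_glcM/B27, and 1 and 5 in HPLM/B27, at medians of -0.30, -0.01 and -0.13. Of all genes 17.8%, 17.8% and 22.4% fell and 2.08%, 3.34% and 3.00% rose in these comparisons. BIN1, which shapes T-tubules, fell in all 3 (-0.95, -1.28 and -1.28, adjusted p 0.000284 to 0.00423), and so did the membrane repair gene DYSF (-0.84, -1.07 and -0.73) and the protease gene CAPN3 (-0.66, -0.83 and -0.82). SSPN, the sarcospan of the dystrophin complex, rose in HPLM/B27 (0.73, adjusted p = 0.00201), and SGCA, a sarcoglycan, in RPMI/B27 (0.59, adjusted p = 0.0304).

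Of the receptors, kinases and transporters tied to caveolae, 1 of 26 rose and 7 fell in RPMI/B27, 3 and 9 in RPMI_glcM/B27, and 1 and 11 in HPLM/B27, at medians of -0.32, -0.38 and -0.37, where 17.8%, 17.8% and 22.4% of all genes fell and 2.08%, 3.34% and 3.00% rose. The kinase SRC, which phosphorylates CAV1, fell by 0.74, 1.09 and 1.03 on the log2 scale (adjusted p 0.000152 to 0.00421, limma). CD44, the hyaluronan receptor, rose in RPMI/B27 (0.82, adjusted p = 0.00428). Of 18 genes of the YAP and stretch response, 8, 8 and 11 fell and 0 rose, at medians of -0.40, -0.45 and -0.54, against the same shares and medians of all genes. CCN2, AXL and AMOTL2 were among them in every medium, with CCN2 at -1.28, -1.76 and -1.64.

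Genes on the cell type marker lists moved with the same comparisons. Fibroblast markers fell for 3, 5 and 4 of 7 genes tested in the same order of media, where 17.8%, 17.8% and 22.4% of all genes fell, with LUM at -1.33, -2.16 and -1.50. Smooth muscle markers fell for 2, 4 and 4 of 6, with MYOCD, which cardiomyocytes also express, at -0.75, -0.87 and -0.98. KDR fell in all 3 (-1.29, -1.19 and -0.86). It was the only 1 of 10 endothelial markers tested, the others averaging under 1 TPM, so it does not show endothelial cells. Of 10 cardiomyocyte markers 2, 2 and 3 rose, where 2.08%, 3.34% and 3.00% of all genes rose, and 2, 3 and 3 fell. PLN, the brake of the calcium pump, was at 0.83, 1.16 and 1.35 and MYH6, the alpha myosin heavy chain, at -1.57, -1.14 and -1.72. TBX18 rose in RPMI/B27 (0.60, adjusted p = 0.0468, limma) and fell in HPLM/B27 (-0.70, adjusted p = 0.0206). It was the only 1 of 6 epicardial markers tested, the others averaging under 1 TPM, so it does not show epicardial cells. Between HPLM/B27 and RPMI/B27, TBX18 (-1.30, adjusted p = 0.00247) and COL1A2 (-0.81, adjusted p = 0.0421) were lower in HPLM/B27. Fibroblast sums were 241 to 439 TPM at Day 16, 119 to 164 in RPMI_glcM/B27, 123 to 188 in HPLM/B27 and 152 to 302 in RPMI/B27. The part of any of these cells in the differences of the caveolar genes was not tested.

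**Figure D5:**
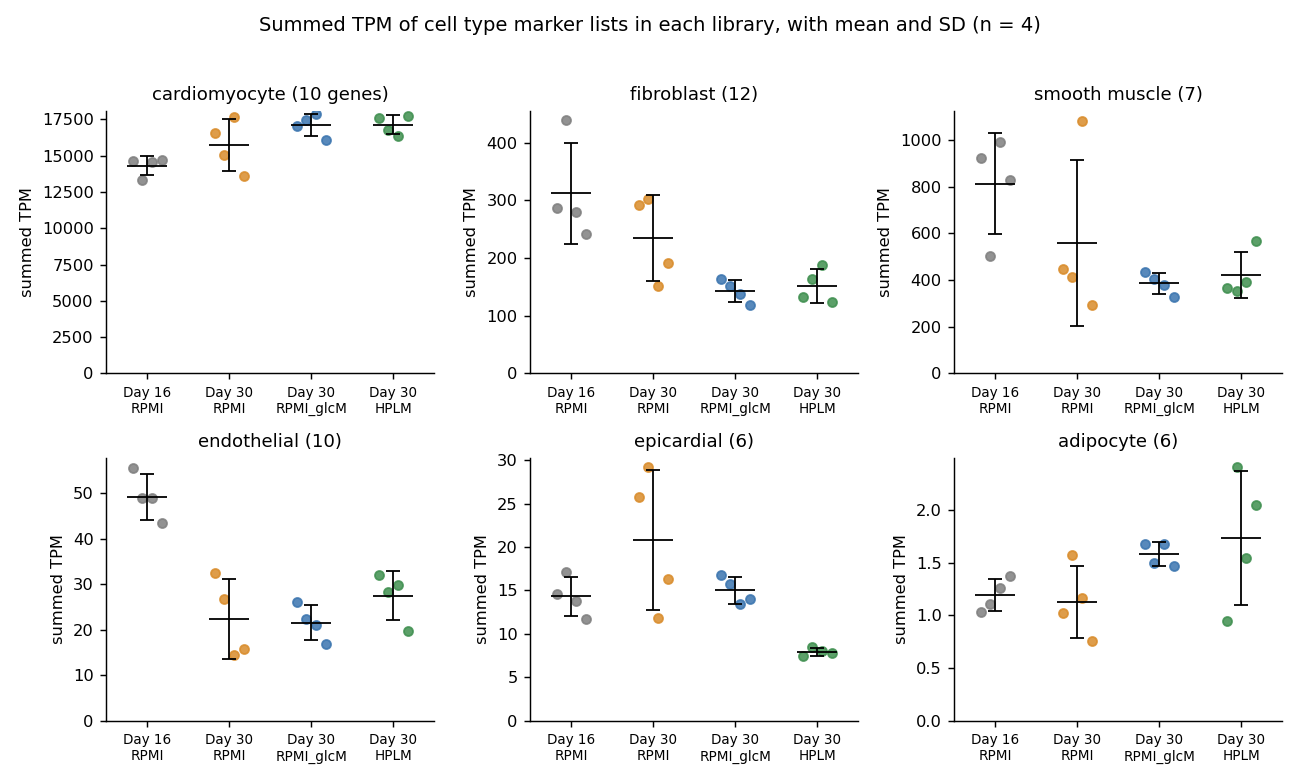
Summed TPM of 6 cell type marker lists in each library (points) with mean and SD (bars), on linear axes from 0. Fibroblast sums were highest at Day 16 (241 to 439 TPM) and cardiomyocyte sums were 13304 to 17838 TPM throughout.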

How the data were processed

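WTC11 hPSC-CM RNA was sequenced from 4 wells in each of 4 groups. The authors prepared stranded total RNA libraries (Takara SMARTer kit), aligned reads to hg38 with decoy sequence using STAR 2.5.3a and counted them with featureCounts 2.0.3, and they deposited TPM per gene. The annotation, gene lengths, strand setting and TPM tool are not given in the sources used here. As TPM are no counts, log2(TPM + 1) was compared with limma 3.58.1 in R 4.3.3 (all 4 groups in 1 fit, eBayes with trend, genes at a mean of at least 1 TPM, Benjamini-Hochberg, 0.05). Reads were recovered as whole numbers (within 0.02) from TPM ratios and tested by limma-voom at a mean of at least 10 reads, as an alternative. The other alternatives were median-of-ratios rescaling, removal of 62 rows (mitochondrial, ribosomal RNA and RN7SK), a pseudocount of 0.1, no filter, a mean of at least 5 TPM, only the compared groups, RNR1 as a covariate, a replicate block and leaving out each library. The code was tested on simulated data.

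The members, the lists and the tests were chosen with earlier results of these data known. Named were all 9 members, the chromosome 7 neighbours, up to 4 genes per list and comparison with the largest difference among those past the threshold, the 5 genes most like CAV1 and like CAV3, and library facts; some list genes are not reported here. Positions and promoters are from RefSeq (GRCh38.p14) and overlaps from GENCODE. Besides CAVIN4, CAV1, CAV3, CAVIN2 and CAVIN3 overlap genes on the opposite strand, whose reads may not be told apart without a strand-aware count. On the same strand, CAVIN1 and EHD2 each overlap a long non-coding RNA gene and PACSIN3 overlaps a microRNA gene. How the counting treated these bases is likewise not given in the sources used here. The series text and the labels differ on the number of wells, and the labels' 4 were used. Depth limits the precision of low genes, and intervals from counting error are not given because the tests use the spread between wells.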

Additional observations from a re-analysis of the deposited data

Results flagged for a closer look

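In 4 of the 36 groups of 4 libraries (9 genes in 4 groups), the highest or the lowest library stood far from the other 3 by Dixon's criterion, which chance meets in about 1 of 20 groups. CAV1 was at 17.5 TPM in Day 30 RPMI/B27 replicate 3, against 13.3 to 13.9 in the others. CAV2 was at 28.8 TPM in Day 30 RPMI/B27 replicate 4, against 42.8 to 45.8. CAVIN1 was at 84.9 TPM in Day 30 RPMI_glcM/B27 replicate 4, against 113 to 118. CAVIN4 was at 12.5 TPM in Day 16 replicate 2, against 22.3 to 22.6. RNR1 was at 14387 and 29276 TPM in the first 2 of these libraries, 6806 in the third and 49.5, the lowest of all 16, in the last, and its part in these values was not tested.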

How the results depend on the processing

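The number of genes called depended on the setting. HPLM/B27 against RPMI_glcM/B27 gave 2 of the 8 genes in the full fit and 0 to 2 with 1 library left out. PACSIN3 passed there as well under 1 of 10 alternatives. HPLM/B27 against RPMI/B27 gave 0, and 1 with median-of-ratios factors, 2 without mitochondrial, ribosomal RNA and RN7SK rows, and 3 with limma-voom, with or without RNR1 as a covariate. RPMI_glcM/B27 against RPMI/B27 gave 1, and 3 under those 4 settings and with RNR1 as a covariate, and 1 to 2 with 1 library left out. RPMI/B27 against Day 16 gave 4, 2 with only the compared groups, and 2 to 4 with 1 library left out. In that comparison EHD2 kept its call under only 2 of 9 alternatives and CAV2 under 9 of 10. RPMI_glcM/B27 against Day 16 gave 3, and 1 at a mean of at least 5 TPM, which removes CAVIN2 and EHD2 from the test. PACSIN3 passed there in addition under 2 of 10 alternatives. HPLM/B27 against Day 16 gave 4, where CAVIN4 kept its call under 7 of 10 alternatives and EHD2 under 8 of 9. Over all genes, HPLM/B27 against RPMI_glcM/B27 gave 11 calls in the full fit, 257 with median-of-ratios factors and 112 without the rows named above. The corresponding numbers were 388, 2092 and 1354 for HPLM/B27 against RPMI/B27 and 354, 1952 and 1186 for RPMI_glcM/B27 against RPMI/B27.

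Differences that changed sign were small and uncalled. PACSIN3 in RPMI/B27 against Day 16 (-0.11) was 0.22 with median-of-ratios factors, 0.081 without the named rows, 0.13 with RNR1 as a covariate, 0.034 with limma-voom and 0.17 with limma-voom and RNR1. CAVIN3 in RPMI_glcM/B27 against Day 16 was 0.042 with median-of-ratios factors. CAVIN1 in HPLM/B27 against Day 16 was 0.18 with these factors and 0.052 without the rows, and PACSIN3 in the same comparison 0.054 with the factors. With 1 library left out, CAVIN1 ranged from -0.23 to 0.13 (RPMI_glcM/B27 against RPMI/B27), from -0.047 to 0.32 (RPMI/B27 against Day 16) and from -0.038 to 0.20 (RPMI_glcM/B27 against Day 16), CAVIN3 from -0.097 to 0.25 and PACSIN3 from -0.20 to 0.042 (RPMI/B27 against Day 16), and CAVIN4 from -0.045 to 0.25 (RPMI_glcM/B27 against Day 16). The causes were not tested.

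Replicate numbers are shared between groups, and deviations of same-numbered libraries correlated by -0.066 to 0.211. No comparison had all 4 pairs over 0.1, and RPMI/B27 against Day 16 had 3. Between 0 and 5 of the 8 libraries of a comparison correlated best with their own number, with 5 for RPMI_glcM/B27 against RPMI/B27. These values do not settle whether wells were paired, and the main fit did not take the numbers as pairs. With a replicate block the counts were 2, 0, 1, 4, 3 and 4, as in the full fit. Depth limits CAV3, CAVIN2, CAVIN3 and EHD2, at most 79 reads per library.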
